A study of Mus musculus with 4 samples.

Results

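The axon guidance ligands and receptors are the Eph receptors and ephrins, the semaphorins with their plexin and neuropilin receptors, the Slits with their Robo receptors, and the netrins with the receptors Dcc, Neo1 and the Unc5 proteins. Members were found by gene symbol, with older probe names mapped to current ones. Of the 70 genes of these families in the RefSeq gene table, 66 had at least 1 probe on the array, read by 89 of its 29922 probes, out of 16637 named genes. Unc5c, Plxnd1, Sema3g and Ntn5 had no probe of that name. For a gene with several probes, the probe with the highest mean over the 4 arrays stood for the gene.

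RNA came from whole embryonic mandibles of mice on a C57BL/6 background at stage E11.5 and was hybridised to one-colour Cy5 arrays. The control group held 2 arrays of wild-type mandibles. The Bmp4 OE group held 2 arrays of mandibles in which conditional Bmp4 overexpression had been induced by 24 hours of doxycycline, Bmp4 being a secreted ligand of the bone morphogenetic protein (BMP) family. The labels give neither the promoter that drove the transgene nor whether control embryos received doxycycline, so drug, genotype and Bmp4 cannot be told apart. They also do not tie arrays to separate embryos, so the p-values measure the spread between these samples only, which may be technical. The comparison asks which guidance genes respond to a raised BMP dose in the jaw primordium.

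Guidance ligands bind receptors on the growing tip of an axon or on a migrating cell and turn it towards or away from the source. Ephrins are anchored in the membrane and are read by Eph receptor tyrosine kinases on the neighbouring cell. Class 3 semaphorins are secreted and act through a neuropilin and a plexin, Slits repel through Robo receptors, and netrins attract through Dcc or repel through Unc5 receptors. In the mandibular arch the same molecules are known to act on neural crest cells, on ingrowing trigeminal sensory axons and on blood vessels.

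The overexpressed gene separated the groups. Bmp4 read 11.96 and 12.07 in the controls and 15.27 and 15.31 in the Bmp4 OE arrays (log2 intensity), a log2 change of 3.28 with a standard error (SE) of 0.11 (limma, adjusted p = 0.00137). All 9 markers of mandibular mesenchyme lay above the lower quartile of all probes, which was 6.79. Of these markers 2 fell, Twist1, a transcription factor of mesenchyme, by 1.19 and Col1a1, a collagen chain, by 0.56 on the log2 scale (limma, adjusted p = 0.00667 and 0.0352), and 7 did not pass, among them Prrx1, Hand2, Dlx5 and Pdgfra. Of those 7, Dlx6 had the largest log2 change, at -0.50, with an unadjusted limma p under 0.05. Both Bmp4 OE arrays lay below both controls in 4 of the 9 markers, beside 32.3% of all named genes, and above both in 0. The deposited values share 1 distribution with a median of 7.95 and a maximum of 16 on every array. Correlations across probes were 0.993 within each group and between 0.974 and 0.981 across groups. In these bulk samples fewer cells of a type and less RNA per cell cannot be told apart.

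Most guidance genes did not pass the test, and those that did went both ways. Of the 66 members, 4 rose, 10 fell and 52 did not pass at an adjusted p of 0.05 (limma, Benjamini-Hochberg over all probes). The 14 that passed were 21.2% of the members, beside 16.9% of all named genes. The rises were 6.06% of the members, beside 7.39% of all named genes, and the falls 15.2%, beside 9.54%. The members that rose were Unc5b, Efna1, Plxna2 and Sema3d. Those that fell were Epha3, Epha2, Epha4, Epha7, Sema4f, Sema3f, Sema5a, Ntn3, Ntn1 and Robo1. The median log2 change of the 66 members was -0.05, and that of all named genes was 0.00. The 2 arrays of one group lay wholly above or below those of the other for 49 members, and for 63.3% of all named genes. The study itself named a 2-fold change and a p of 0.05 as its limits, applied here to the unadjusted limma p. By that rule 2 members, Unc5b and Efna1, were higher, beside 1.56% of all named genes, and 3 members, Epha3, Sema3f and Sema4f, were lower, beside 1.76%. The 5 together stand beside 3.32% of all named genes. Leaving out any 1 of the 4 arrays (control replicate 1 or 2, Bmp4 OE replicate 1 or 2) left 0 members past the adjusted threshold, with 1 residual degree of freedom and 0 of all probes passing in limma. In the full fit 31 members had an unadjusted limma p under 0.05, with no share of all named genes to set beside it. Fitting the replicate number as a block also left 0 members past the adjusted threshold.

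**Figure D1:**
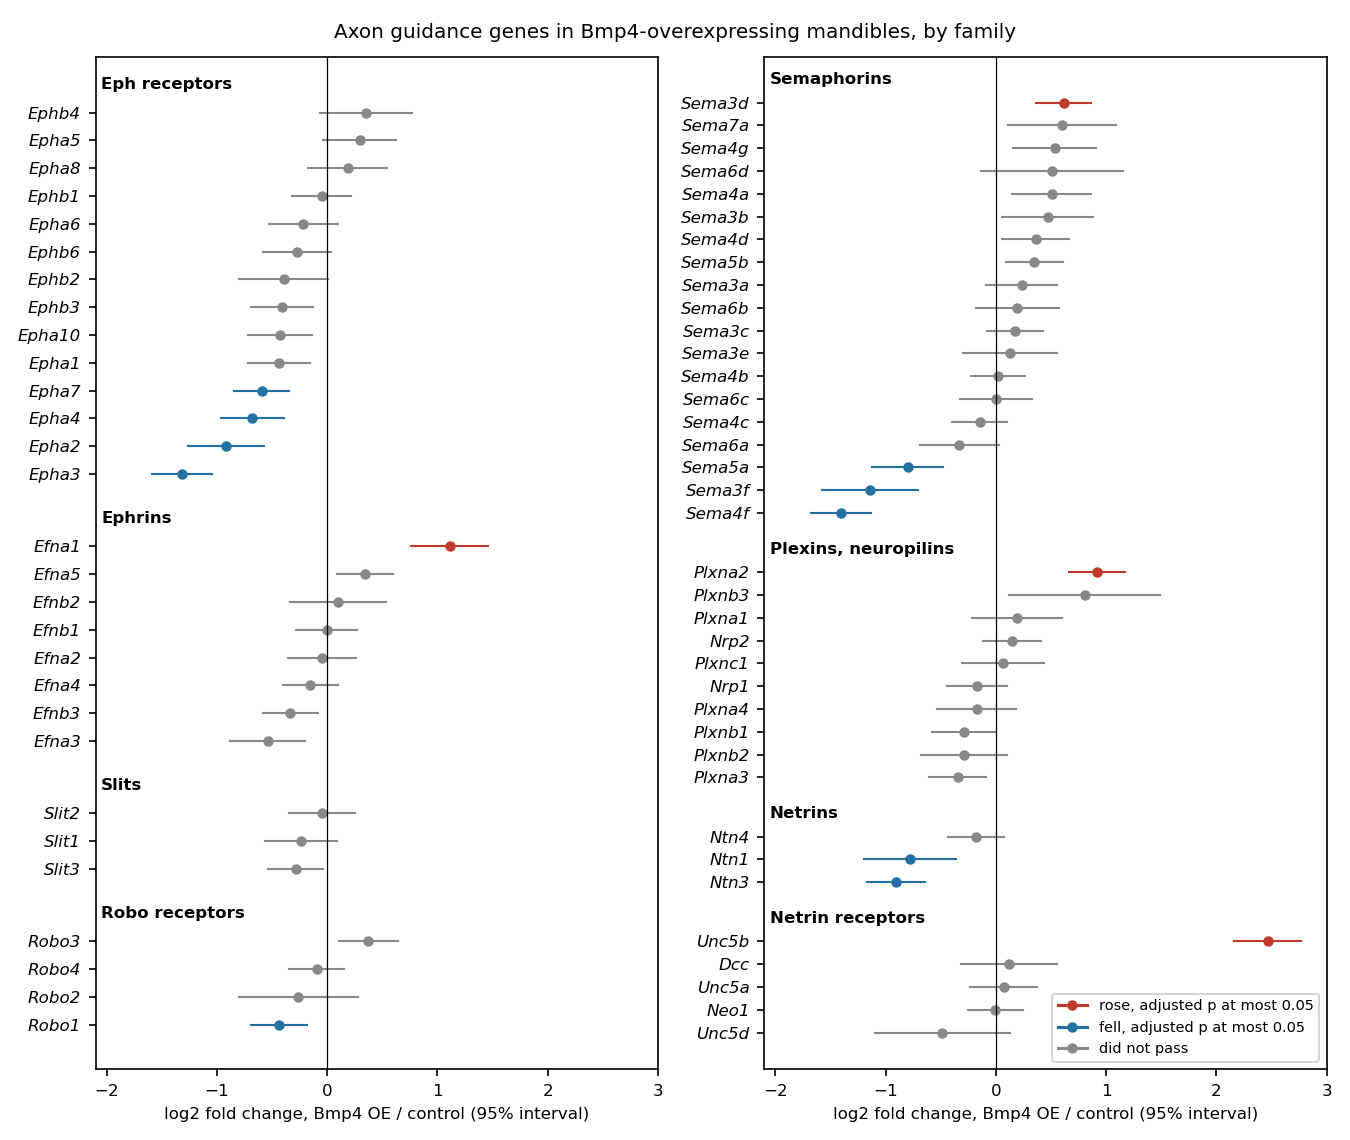
Log2 fold change (x axis) of each of the 66 members, grouped by family. Points are limma estimates and bars unadjusted 95% intervals, red for genes that rose, blue for genes that fell and grey for genes that did not pass at an adjusted p of 0.05. Unc5b stands at 2.47, and the 4 Eph receptors in blue lie between -1.32 and -0.60.

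**Figure D2:**
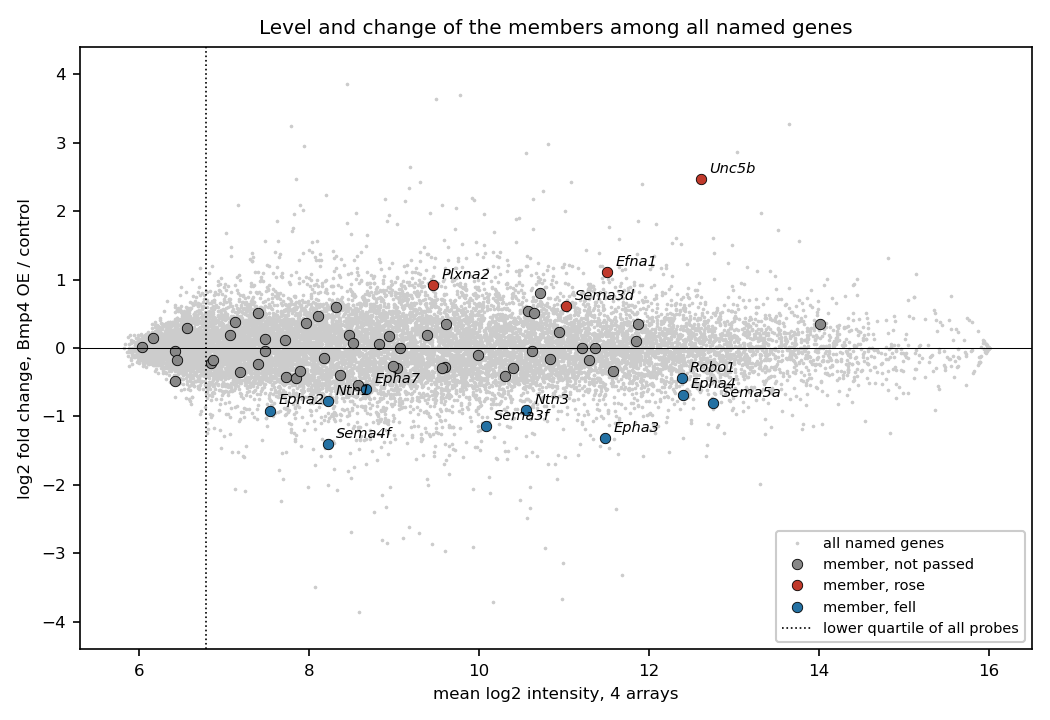
Mean log2 intensity over the 4 arrays (x axis) against log2 change (y axis), with all 16637 named genes in light grey and the members in colour. The 14 members that passed all lie to the right of the lower quartile (dotted line), and Unc5b lies above the other members.

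The promoters of the members past the 2-fold threshold are printed to show the sequence around the start of the genes that moved most. RefSeq windows on GRCm38.p6, from 250 bases before to 50 after a start, were given for 56 of the 66 members and for 12 of the 14 that passed. Of the 5 members past 2-fold, 4 had a window, and Sema3f had none. Efna1 has 2 annotated starts. Sequences run 5′ to 3′ on the gene's strand, and capitals mark matches to 3 motifs. The first is GGCGCC, which reads alike on both strands, and a related one is GGAGCC, which appears on the opposite strand as GGCTCC. Both are GC-rich motifs known to be bound by BMP-activated Smad proteins. The last is AGATAA, which appears on the opposite strand as TTATCT and is a form of the GATA factor site. Other forms of that site were not searched and are not marked.
Unc5b, chr10:60831532-60831831, minus strand: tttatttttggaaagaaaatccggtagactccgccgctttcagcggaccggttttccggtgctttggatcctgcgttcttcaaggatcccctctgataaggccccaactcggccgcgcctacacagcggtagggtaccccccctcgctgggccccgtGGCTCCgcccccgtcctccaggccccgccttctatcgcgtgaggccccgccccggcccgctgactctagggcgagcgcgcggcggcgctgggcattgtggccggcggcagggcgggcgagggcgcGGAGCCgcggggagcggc
Efna1, chr3:89279596-89279895, minus strand: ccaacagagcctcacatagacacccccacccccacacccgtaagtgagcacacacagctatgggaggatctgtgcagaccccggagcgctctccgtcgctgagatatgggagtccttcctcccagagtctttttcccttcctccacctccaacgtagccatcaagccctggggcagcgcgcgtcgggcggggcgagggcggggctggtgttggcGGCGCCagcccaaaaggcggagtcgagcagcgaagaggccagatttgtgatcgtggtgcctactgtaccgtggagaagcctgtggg
Efna1, chr3:89280902-89281201, minus strand: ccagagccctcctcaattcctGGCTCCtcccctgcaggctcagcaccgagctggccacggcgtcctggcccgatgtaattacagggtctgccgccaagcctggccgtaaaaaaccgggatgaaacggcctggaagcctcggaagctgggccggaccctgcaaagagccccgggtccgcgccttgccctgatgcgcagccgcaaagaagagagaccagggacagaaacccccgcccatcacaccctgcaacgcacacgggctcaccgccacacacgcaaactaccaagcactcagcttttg
Epha3, chr16:63864126-63864425, minus strand: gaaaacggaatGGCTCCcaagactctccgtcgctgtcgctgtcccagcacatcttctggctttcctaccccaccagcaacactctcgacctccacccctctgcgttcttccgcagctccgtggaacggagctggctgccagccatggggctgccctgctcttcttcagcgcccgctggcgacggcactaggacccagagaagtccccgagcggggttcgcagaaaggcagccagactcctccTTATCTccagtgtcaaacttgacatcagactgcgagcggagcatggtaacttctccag
Sema4f, chr6:82939720-82940019, minus strand: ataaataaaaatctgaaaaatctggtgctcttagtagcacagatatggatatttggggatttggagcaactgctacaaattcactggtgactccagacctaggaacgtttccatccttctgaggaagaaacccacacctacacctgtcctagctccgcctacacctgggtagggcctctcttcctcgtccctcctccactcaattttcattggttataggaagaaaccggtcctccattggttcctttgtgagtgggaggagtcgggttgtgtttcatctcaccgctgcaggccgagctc
The Unc5b window held 2 matches to GGAGCC, the Efna1 windows 1 match to GGCGCC and 1 to GGAGCC, the Epha3 window 1 match to GGAGCC and 1 to AGATAA, and the Sema4f window 0 of all 3. Matches were counted on both strands, also where they overlapped. Over all 32851 windows of this length in the table, 11.9% held GGCGCC, 30.8% GGAGCC and 11.2% AGATAA. Over the 72 windows of the measured members the shares were 22.2%, 51.4% and 4.17%. A match describes the letters and is no evidence of binding.

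Among the netrin receptors, Unc5b rose 5.52-fold, the largest change of any member. Unc5b encodes a receptor that mediates repulsion by netrin and is also known from sprouting blood vessels. It read 11.39 ± 0.16 in controls (log2 intensity, mean ± SD, n = 2, the lower array at 11.27) and 13.84 and 13.86 in the Bmp4 OE arrays. The groups lay far apart, and the change had a log2 value of 2.47 with an SE of 0.12 (limma, adjusted p = 0.00182). A second Unc5b probe read 9.40 and 9.47 in controls and 11.53 and 11.42 in Bmp4 OE arrays. Its log2 change was 2.04 (limma, adjusted p = 0.00201), so both probes rose.

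The other 4 netrin receptors that were measured did not pass. Unc5a, a paralogue with the same netrin-binding role, read 8.38 and 8.58 in controls and 8.49 and 8.61 in Bmp4 OE arrays. Its log2 change of 0.07 had a 95% interval from -0.23 to 0.37. Dcc, the receptor of netrin attraction, had a log2 change of 0.12 (95% interval -0.32 to 0.56), with overlapping groups. For Neo1, the Dcc relative that also binds repulsive guidance molecules, it was -0.005 (95% interval -0.26 to 0.25). Unc5d lay at or below the lower quartile on 3 arrays and at 7.04 in control replicate 1, with a log2 change of -0.49 that did not pass (limma, adjusted p = 0.236). Whether the change of Unc5b differed from that of its relatives was not tested, and Unc5c had no probe. The 95% interval of Unc5b, 2.16 to 2.77, lay above those of the 4 measured relatives. That is no test of a difference, because Unc5b was singled out as the largest change of any member.

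Of the 3 netrins measured, 2 fell, and Ntn4 did not pass. The falls were 66.7% of this small family, beside 9.54% of all named genes. Ntn1, the classical netrin that attracts and repels axons, read 8.79 and 8.43 in controls and 7.70 and 7.97 in Bmp4 OE arrays. Its brightest probe had a log2 change of -0.78 with an SE of 0.17 (limma, adjusted p = 0.0381). The second Ntn1 probe, close to the lower quartile, gave -0.15 and did not pass (limma, adjusted p = 0.544), and the mean of both probes gave -0.46 (limma, adjusted p = 0.0785). Ntn3, a secreted netrin related to Ntn1, read 10.97 and 11.05 in controls and 10.15 and 10.06 in Bmp4 OE arrays, with no overlap. It was 1.87-fold lower (limma, adjusted p = 0.0104), and its second probe also fell, with a log2 change of -0.76. Ntn4, a netrin of basement membranes, lay below the lower quartile on all arrays, where the array gives little range, and had a log2 change of -0.18.

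Of the 14 Eph receptors, 4 fell, which is 28.6% beside 9.54% of all named genes, and 10 did not pass. The 4 are all among the 9 receptors of the A class, and whether that class differed from the B class was not tested. Also in the A class, Epha5 and Epha8 had log2 changes of 0.295 and 0.185 and did not pass. Epha6 and Epha10 had -0.215 and -0.425 and did not pass either. The median log2 change of the 14 receptors was -0.40. In 10 of the 14 both Bmp4 OE arrays lay below both controls, beside 32.3% of all named genes. Epha3, a receptor of mesenchyme and motor axons, read 12.15 and 12.14 in controls and 10.90 and 10.75 in Bmp4 OE arrays. The controls were almost identical and the fall was 2.50-fold (log2 change -1.32 with an SE of 0.11, limma, adjusted p = 0.005). Epha2, a receptor of epithelia and vessels, read 8.13 and 7.88 in controls and 6.99 and 7.19 in Bmp4 OE arrays. It was 1.89-fold lower (limma, adjusted p = 0.0174), and its Bmp4 OE values came near the lower quartile, where changes are compressed.

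Epha4, which binds ephrins of both classes, read 12.66 and 12.82 in controls and 12.01 and 12.11 in Bmp4 OE arrays. Its log2 change of -0.68 was larger than the spread within either group (limma, adjusted p = 0.0223). Epha7, which reads A-class ephrins, read 8.99 and 8.96 in controls and 8.35 and 8.41 in Bmp4 OE arrays (limma, adjusted p = 0.0230). Both Epha7 probes fell, with log2 changes of -0.60 and -0.64. Of the Eph receptors that did not pass, Epha1 had the largest change, with a log2 value of -0.44 (limma, adjusted p = 0.0581) at the brightest of its probes. The second and the third gave 0.11 and -0.36, so the second had the opposite sign.

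In the B class the call depended on the probe for Ephb4 and Ephb2. Ephb4, the receptor of veins, read 11.80 and 11.59 in controls and 11.85 and 12.25 in Bmp4 OE arrays at its brightest probe. This log2 change of 0.36 did not pass (limma, adjusted p = 0.208). The second Ephb4 probe fell instead, from 10.48 and 10.55 to 9.97 and 10.02, a log2 change of -0.52 (limma, adjusted p = 0.0312). Ephb4 therefore has no settled direction. For Ephb2, a receptor of B-class ephrins in axon tracts, both probes were negative, with log2 changes of -0.40 at the brightest and -0.53 at the second, of which the second passed (limma, adjusted p = 0.0341). Ephb3 had a log2 change of -0.41 (limma, adjusted p = 0.0647), and Ephb6, which lacks kinase activity, one of -0.28 (limma, adjusted p = 0.189). Ephb1 read at most 6.50, below the lower quartile.

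Among the ephrins, Efna1 was the member that passed, and it rose. The rise was 12.5% of the family, beside 7.39% of all named genes. Efna1 encodes a membrane-linked ligand that binds Epha2 with high affinity, and Epha2 fell in the same arrays. It read 11.03 and 10.88 in controls and 12.21 and 11.92 in Bmp4 OE arrays. The groups were separate and the rise was 2.16-fold (log2 change 1.11 with an SE of 0.14, limma, adjusted p = 0.0119). Without Bmp4 OE replicate 1 its log2 change was 0.97, short of 2-fold. In the RefSeq gene order Efna1, Efna3 and Efna4 follow each other on chromosome 3 with 0 protein-coding genes between them. Efna3 had a log2 change of -0.54 (limma, adjusted p = 0.0544), and passed with robust eBayes or with probes below the median left out (limma, adjusted p = 0.0404 and 0.0426). Efna4 had a log2 change of -0.16 and did not pass (limma, adjusted p = 0.339).

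The other 7 ephrins did not pass. Efna5, a ligand of Epha3, Epha4 and Epha7, read 13.82 and 13.86 in controls and 14.16 and 14.21 in Bmp4 OE arrays (limma, adjusted p = 0.0769). Its 2 probes gave log2 changes of 0.35 and 0.51. Efnb1, the ephrin mutated in craniofrontonasal syndrome, had a log2 change of -0.005 (95% interval -0.28 to 0.27). Efnb2, the ligand of Ephb4 on arteries, had one of 0.10 (95% interval -0.34 to 0.54), and Efnb3 one of -0.34 (limma, adjusted p = 0.0789). Efna2 had one of -0.05, with overlapping groups.

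**Figure D3:**
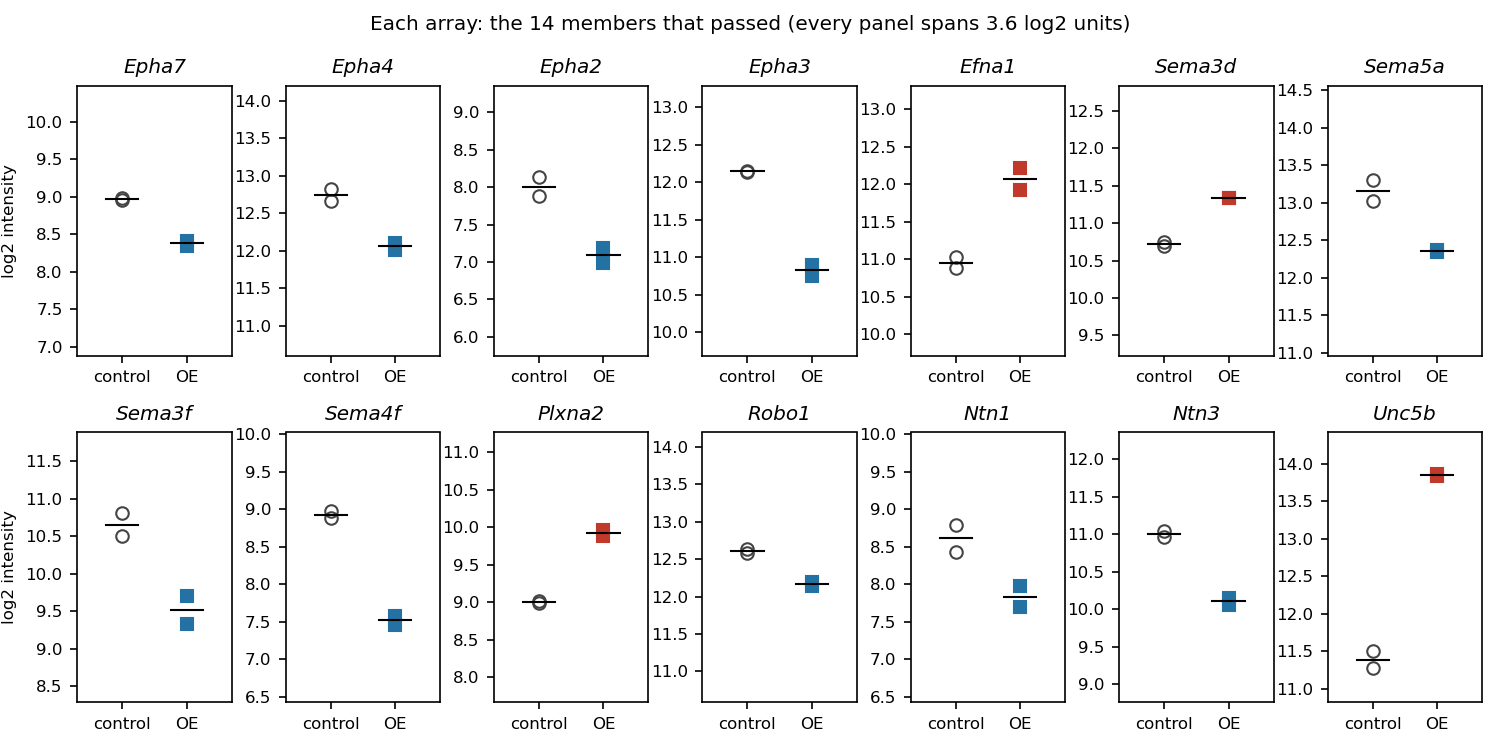
Log2 intensity (y axis) on each array for the 14 members that passed, with open circles for the 2 control arrays, filled squares for the 2 Bmp4 OE arrays and lines at the group means. Every panel spans 3.6 log2 units, and in each the groups are separate. The gap is largest for Unc5b and smallest for Robo1.

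The semaphorins split, with 1 rise, 3 falls and 15 members that did not pass. The rise was 5.26% of the family, beside 7.39% of all named genes, and the falls 15.8%, beside 9.54%. Sema4f, a transmembrane semaphorin, read 8.97 and 8.88 in controls and 7.58 and 7.46 in Bmp4 OE arrays. It was 2.65-fold lower, the largest fall of any member (log2 change -1.41 with an SE of 0.11, limma, adjusted p = 0.00464). Sema3f, a secreted repellent for cranial nerves and neural crest, read 10.81 and 10.50 in controls and 9.33 and 9.70 in Bmp4 OE arrays. The fall was 2.20-fold (limma, adjusted p = 0.0182), and the spread within each group was smaller than the gap. Without control replicate 1 or Bmp4 OE replicate 1 its log2 change was -0.99 and -0.96, short of 2-fold.

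Sema5a, a transmembrane semaphorin with thrombospondin repeats, read 13.30 and 13.02 in controls and 12.37 and 12.35 in Bmp4 OE arrays. It was 1.74-fold lower (limma, adjusted p = 0.0206), and its second probe also fell, with a log2 change of -0.53 (limma, adjusted p = 0.0472). Sema3d, a secreted semaphorin known to guide neural crest and vessels, read 10.75 and 10.69 in controls and 11.34 and 11.33 in Bmp4 OE arrays. This rise of 1.53-fold (limma, adjusted p = 0.0211) rested on 1 probe. The second Sema3d probe gave -0.05 and did not pass (limma, adjusted p = 0.786), and the mean of both probes, fitted per gene, gave 0.28 (limma, adjusted p = 0.108).

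Many of the other semaphorins had positive values that did not pass. In 10 of the 19 semaphorins both Bmp4 OE arrays lay above both controls, beside 31.0% of all named genes, and the family's median log2 change was 0.20. These 10 include Sema4b, below the lower quartile at 6.04 and 6.02 in controls and 6.05 on both Bmp4 OE arrays. They also include Sema3d, Sema7a and Sema3b, whose groups overlapped at the second probe. Sema7a, a membrane-linked ligand of Plxnc1 and integrins, had the largest of the changes that did not pass, at 0.60 (limma, adjusted p = 0.0986), and its second probe gave -0.13. Sema4g and Sema4a had log2 changes of 0.54 and 0.51 (limma, adjusted p = 0.0702 and 0.0713). Sema3a, the secreted repellent of sensory axons that acts through Nrp1, read 10.85 and 10.81 in controls and 11.20 and 10.93 in Bmp4 OE arrays, a log2 change of 0.24 (95% interval -0.09 to 0.56). Sema3b, which lies 3 protein-coding genes from Sema3f on chromosome 9, had a log2 change of 0.47 (limma, adjusted p = 0.113). Its second probe gave 0.03, with overlapping groups.

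Of the 10 plexins and neuropilins measured, 1 rose and 9 did not pass. Plxna2, a receptor of class 6 semaphorins and a partner of neuropilins, read 9.02 and 8.99 in controls and 9.96 and 9.88 in Bmp4 OE arrays. The groups were separate, with a rise of 1.89-fold at this probe (limma, adjusted p = 0.0095). The second Plxna2 probe lay below the lower quartile and pointed down, from 6.68 and 6.61 to 6.30 and 6.32, a log2 change of -0.34 that did not pass (limma, adjusted p = 0.0824). The mean of both probes gave 0.29 (limma, adjusted p = 0.100), so the rise belongs to 1 probe. Plxnb3, a receptor of Sema5a, had a log2 change of 0.81 that did not pass (limma, adjusted p = 0.107). Its controls, at 9.89 and 10.74, were themselves far apart, against 11.18 and 11.06 in Bmp4 OE arrays.

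The neuropilins did not pass. Nrp1, the binding partner of Sema3a, read 11.46 and 11.30 in controls and 11.20 and 11.22 in Bmp4 OE arrays, a log2 change of -0.17 (95% interval -0.45 to 0.11). Nrp2, the binding partner of Sema3f, lay between 6.06 and 6.28 on all arrays, below the lower quartile, where changes are compressed. The other plexins, Plxna1, Plxna3, Plxna4, Plxnb1, Plxnb2 and Plxnc1, had log2 changes between -0.35 and 0.19.

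Robo1 was the member of the Slit system that passed. None of the 3 Slits passed in limma, and 1 of them, Slit3, had an unadjusted p under 0.05. Slit2, the Slit best known as a repellent of cranial axons, read 10.71 and 10.58 in controls and 10.69 and 10.51 in Bmp4 OE arrays, with overlapping groups. Its second probe went from 7.49 and 7.64 to 7.38 and 7.12, without overlap. That log2 change of -0.315 did not pass (limma, adjusted p = 0.17). At the brightest probe of each, Slit3 had the largest change of the 3, with a log2 value of -0.29 (limma, adjusted p = 0.115). Robo1, a receptor of Slits on axons and other migrating cells, fell from 12.63 and 12.58 to 12.14 and 12.20, a log2 change of -0.44 with an SE of 0.10 that lay just inside the threshold (limma, adjusted p = 0.0459). Robo2, its neighbour with 0 protein-coding genes between them on chromosome 16, had one of -0.26 with overlapping groups (limma, adjusted p = 0.458). Robo3, a receptor of commissural axons, had one of 0.38 (limma, adjusted p = 0.0725).

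Probes of the same gene did not always move together. Of the 21 members with several probes, the 2 brightest had the same sign in 13, opposite signs in 7, and in Sema6c the brightest was at 0.00. Among the 7 of them whose brightest probe passed, the second passed in the same direction for Unc5b, Epha7, Ntn3 and Sema5a. For Ntn1 it had the same sign and did not pass, and for Plxna2 and Sema3d it had the opposite sign. In Ephb2 and Ephb4 the second probe passed and the brightest did not. In Sema6a, a transmembrane semaphorin that binds class A plexins, the third probe fell by 0.66 on the log2 scale (limma, adjusted p = 0.0183), whereas the brightest gave -0.33 and did not pass (limma, adjusted p = 0.176). The remaining members that passed, Epha2, Epha3, Epha4, Efna1, Sema3f, Sema4f and Robo1, were read by 1 probe each.

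**Figure D4:**
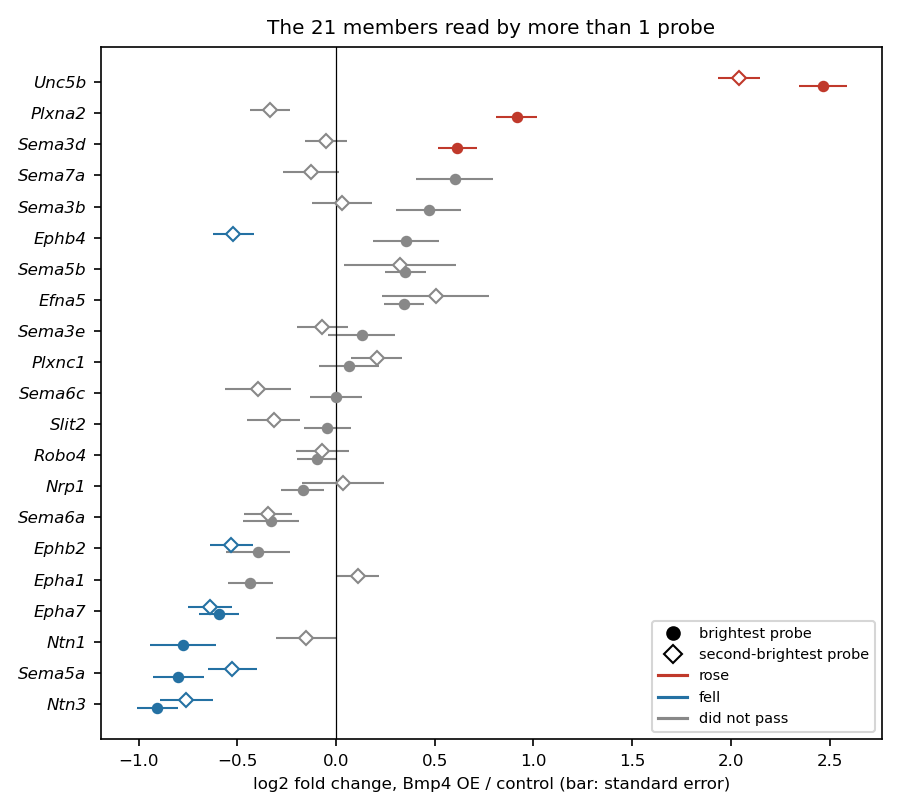
Log2 fold change (x axis) at the brightest probe (filled circle) and the second-brightest probe (open diamond) of the 21 members with several probes, with standard errors as bars and the colour giving the call of each probe. Both Unc5b probes lie above 2, whereas the Plxna2 and Ephb4 probes lie on opposite sides of 0.

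Co-receptors, other ligands and cytoplasmic partners of the same 4 systems were counted from a separate list. Of 50 measured genes of the 52 listed, 4 rose, 3 fell and 43 did not pass, which is 14% beside 16.9% of all named genes. Ntng1, a membrane-linked netrin relative that binds its own ligand and not Dcc or Unc5 proteins, read 9.11 and 9.05 in controls and 11.14 and 10.94 in Bmp4 OE arrays. It rose 3.89-fold (limma, adjusted p = 0.00268), the largest change in this list at the brightest probe. Its second probe and the mean of its 3 probes gave smaller log2 changes of 0.87 and 0.90, which also passed (limma, adjusted p = 0.0115 and 0.00966), against 1.96 at the brightest. Crmp1, a cytoplasmic mediator of Sema3a signals, fell from 9.32 on both control arrays to 8.12 and 8.13, while its relative Dpysl3 rose from 11.51 and 11.31 to 12.13 and 12.22. The log2 changes were -1.20 and 0.77 (limma, adjusted p = 0.005 and 0.0187). Dpysl2, the founding member of that family, had one of 0.03 and did not pass.

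Sdc1, a heparan sulphate proteoglycan of the kind that binds Slits, fell by 1.05 on the log2 scale, and Trio, an exchange factor downstream of Dcc, fell by 0.80 (limma, adjusted p = 0.0092 and 0.0127). Fes, a kinase that acts with plexins, rose by 0.71 (limma, adjusted p = 0.0308). Ablim3, an actin-binding protein, rose by 0.44 (limma, adjusted p = 0.0477) at the brightest of its 3 probes, but it did not pass under limma trend (adjusted p = 0.0765) or as the mean of its probes (limma, 0.16, adjusted p = 0.322), and its second probe gave -0.20. Flrt3 and Flrt2, membrane proteins that bind Unc5 receptors, had log2 changes of -0.22 and -0.33 and did not pass. Rgma and Rgmb, ligands of Neo1 and co-receptors for BMPs, had -0.40 and -0.14 and did not pass (limma, adjusted p = 0.119 and 0.405).

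Markers of the main tissue and of other cell types were counted beside these genes, as summed linear intensity, and their part in the results was not tested. Of all named genes 7.39% rose and 9.54% fell, together 16.9%. Near that share lay the endothelial (14.3%), muscle (16.7%), myeloid (16.7%) and neuronal (20.0%) markers that passed. The shares were 22.2% for mesenchymal, 55.6% for epithelial and 66.7% for mural markers. The 9 mesenchymal markers summed to 51350 to 52140 in controls and 38000 to 38270 in Bmp4 OE arrays, and without Twist1 to 30020 to 30520 and 28250 to 29090. Of 7 endothelial markers, 1 rose and 0 fell, and their sum was 7680 to 7725 in controls and 9470 to 9527 in Bmp4 OE arrays. Of 6 mural cell markers, 3 rose and 1 fell, with sums of 6935 to 7203 in controls and 9323 to 9436 in Bmp4 OE arrays, and without Acta2 of 4118 to 4444 and 3918 to 4323, which overlap. Unc5b, Epha2, Ephb4 and Efnb2 are also known from vessels. Robo4, a receptor of endothelium, had a log2 change of -0.10 at its brightest probe (95% interval -0.35 to 0.16). Of 10 neuronal markers, 1 rose and 1 fell, and their sum was 26350 and 36500 in controls and 50070 and 51720 in Bmp4 OE arrays, most of it from Elavl3, without which it was 3506 to 3657 and 4730 to 5001. The marker that rose was Dcx, with a log2 change of 0.925, and Nefm fell, with -0.555 (limma, adjusted p = 0.00908 and 0.0336). Both Bmp4 OE arrays lay above both controls in 6 of the 10 neuronal markers and below both in 3. Neurofilament genes Nefl and Nefm read at most 7.25 on any array.

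Of 9 epithelial markers, 3 rose and 2 fell. Krt8, Krt18 and Cdh1 rose, and Krt14 and Krt5 fell. The sum was 39020 to 40520 in controls and 32080 to 33410 in Bmp4 OE arrays, but most of it came from Krt14, a keratin of basal cells. Without Krt14 it went the other way, from 10980 to 11850 in controls to 16140 to 16560 in Bmp4 OE arrays. Of 6 myeloid markers 1, Tyrobp, rose, with sums of 1371 to 1389 in controls and 1773 to 1883 in Bmp4 OE arrays. Of 6 muscle markers 1, Actc1, rose, with sums of 3924 to 4379 and 5152 to 5328, which overlapped without Actc1 (1296 to 1482 and 1330 to 1559). Of 5 Schwann and migrating crest markers 0 passed in limma, and 2 of them, Sox10 and Mbp, had an unadjusted p under 0.05. The sums were 1372 to 1480 in controls and 1013 to 1227 in Bmp4 OE arrays. Without Sox10 they were 590.6 to 600.5 and 521.4 to 605.7, which overlap.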

How the data were processed

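Total RNA of whole mandibles was amplified as aminoallyl RNA and labelled with Cy5, 1 sample per array, per the labels' protocols. The deposited values are log2 intensities with 1 value per probe and array and no missing value. Sorted, the 4 columns are the same (largest difference 0), which means that the deposited log2 table had been quantile-normalised. A shift shared by most genes would be invisible in it. The log base was read from the maximum of 16. The scanner, the background correction and the software behind the table: not given in the sources used here. Of 29922 probes, 21020 had 1 gene symbol, 0 several and 8902 none. Of the named probes, 3410 took a current symbol from RefSeq synonyms (GRCm38.p6).

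All probes were fitted by lmFit and eBayes of limma 3.58.1 (R 4.3.3; two-sided, no covariate or filter), with Benjamini-Hochberg adjustment over all probes and 2 residual plus 3.59 prior degrees of freedom. The number of arrays limits the precision, and an exact permutation test of 2 against 2 arrays cannot give a p below 0.333. Members and lists were chosen with earlier results of these data known. Every array's value is given for members that passed with a change of at least 1.5-fold (0.58 on the log2 scale), except that the Unc5b controls are given by their mean, SD and lower value. Also named are the other members that passed, the largest change that did not pass in each family, known binding partners, the brightest member of each family, and up to 4 genes per direction of the separate list of partners. Further genes, among them Ephb2, Ephb4, Sema4a, Sema4g, Sema3b and Robo4, were chosen once their values were known. The model was tested on simulated data. Alternatives were another normalisation, log2 of the linear value plus 50, filters on dim probes, other variance priors, a replicate block, the second-brightest probe, the mean of all probes, and leaving out each array.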

Additional observations from a re-analysis of the deposited data

How the results depend on the processing

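Median centring and quantile normalisation could not change a value, since the 4 arrays already share 1 distribution. An offset of 50 on the linear scale, filters below the lower quartile or the median, limma trend and robust eBayes left the counts of members within 1.5 times of those reported. Under limma trend 5 partner genes, not 3, were lower. With the second-brightest probe or the mean of all probes 2 members rose instead of 4, and the members' median log2 change was -0.135 and -0.083 instead of -0.05. At the second-brightest probe the sign turned for Plxna2 (-0.335), Sema3d (-0.05), Epha1 (0.11), Sema7a (-0.125) and Ablim3 (-0.20). Ntn1 also lost its call with the mean of all probes (adjusted p = 0.0785).

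Replicate numbers are shared between the groups without a stated pairing, and deviations of same-numbered arrays correlated with r = -0.07 across probes. With the replicate block, 0 of all probes passed (limma, lowest adjusted p = 0.0745), so 0 members and 0 partner genes were called in either direction, and Bmp4 had a log2 change of 3.28 with an adjusted p of 0.0745. With the block, 26 of the 66 members had an unadjusted limma p under 0.05, among them all 14 called members. The block leaves each log2 change as it was, and the 14 were chosen by their p on the same arrays. Their low p is therefore no separate evidence.

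Without control replicate 1 or 2, or Bmp4 OE replicate 1 or 2, 0 members and 0 partner genes passed in limma, with 0 to 0 in each direction. In that setting 1 to 3 members were higher and 2 to 4 lower at the 2-fold threshold. The members' median lay between -0.122 and 0.00, and Bmp4 between 3.22 and 3.33 (adjusted p = 0.138 to 0.191). Each of the 14 called members kept its sign, which was bound to happen because their groups did not overlap. The log2 change of Unc5b lay between 2.35 and 2.58, and that of Ntn1 between -0.955 and -0.595. A group left with 1 array is assumed to vary like the other. Signals below the lower quartile limit Ntn4, Nrp2, Unc5d, Ephb1, Epha5 and Sema4b, and both filters gave Ntn4 and Unc5d no value. The filter below the median also gave none for Epha2, a called member, Epha1 and Robo3.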
